A study of Mus musculus with 82 samples.

Results

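Mouse embryonic fibroblasts without either catalytic subunit of AMP-activated protein kinase (AMPK) were compared after 4 h with 2 mM AICAR and after 4 h with vehicle. The 8 arrays are all those of AMPK-null (dKO) fibroblasts with either treatment, 4 in each group, out of 23 fibroblast arrays and 82 arrays in the series. The dKO cells carry the genotype AMPK α1-/-/α2-/- on the C57BL/6 strain, and the control (WT) cells share the strain. All cells grew in DMEM with 10% fetal calf serum. The other fibroblast groups used here are dKO cells with compound 991 at 10 µM (4 arrays), WT cells with 2 mM AICAR (4 arrays) and WT cells with vehicle (4 arrays), all at 4 h. Vehicle was DMSO, although the titles of these arrays read No Treat. The 4 arrays of a group are called technical replicates and no biological replicate is named, so the p-values measure the spread between these arrays, which may be technical. No source used here names more than 1 line of cells per genotype, so a difference between genotypes cannot be told apart from a difference between lines.

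AICAR is a nucleoside that cells take up through nucleoside transporters and that adenosine kinase phosphorylates to ZMP, an intermediate of purine synthesis that resembles AMP. ZMP activates AMPK through its nucleotide-binding γ subunit, and it also acts on other AMP-sensitive enzymes. AMPK is a heterotrimer that cannot phosphorylate its targets without an α subunit, and 991 is a direct activator that binds elsewhere on the complex. The comparison therefore addresses which transcripts change with AICAR in cells where both α subunits were deleted.

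Expression is given as log2 intensity per gene, and an effect is the AICAR mean minus the vehicle mean on that scale. A gene was called at an adjusted p under 0.05 in limma, with p-values adjusted over all 18032 genes tested. With AICAR, dKO fibroblasts had 7279 called genes (40.4% of those tested), 3706 higher (20.6%) and 3573 lower (19.8%). Most of these differences were small: the central 90% of all genes lay between -0.50 and 0.37 log2 units, and the median gene differed by -0.02. At a fold of at least 1.5, 301 genes were higher (1.67%) and 687 were lower (3.81%), and at least 2-fold, 54 were higher and 201 lower. For 7202 genes (39.9%) the AICAR and vehicle arrays did not overlap.

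The array medians were 6.16 to 6.20 with AICAR and 6.24 to 6.25 with vehicle, and each array correlated with the mean of the rest of its group at 0.9982 to 0.9988 (AICAR) and 0.9989 to 0.9991 (vehicle). No pair of arrays was identical. Mean levels of fibroblast markers were high for Vim, at 13.84 with AICAR and 13.92 with vehicle, and for Fn1, at 12.56 and 12.78 in the same order. Thy1 and Pdgfra, which also mark fibroblasts, were low, at 4.62 and 4.50 with AICAR and 4.88 and 4.98 with vehicle. Ptprc, Pecam1 and Alb, markers of other cells, lay below the median gene level of 7.08 in both groups. Ptprc averaged 3.41 with AICAR and 3.24 with vehicle, Pecam1 4.14 and 4.19, and Alb 5.23 and 5.24. Cd14 and Eng, from the macrophage and endothelial lists, lay above that level, at 7.12 and 7.15 with AICAR and 7.74 and 7.55 with vehicle. Epcam, at 7.18 with AICAR and 7.24 with vehicle, was near that median and did not pass the test. Over the marker lists, 1 of 9 macrophage markers (Cd14, 11.1%), 2 of 8 endothelial markers (Eng and Kdr, 25%) and 1 of 6 lymphocyte and erythroid markers (Cd8a, 16.7%) fell with AICAR, beside 19.8% of all genes. Of 9 hepatocyte markers 2 rose (Apoa1 by 0.23 and Fgb by 0.27, 22.2% beside 20.6% of all genes), but 1 or both missed the threshold without AICAR array 1, 3 or 4 or vehicle array 2 or 3. Kdr missed it without AICAR array 3. The mean of the macrophage list was 4.84 to 4.87 on the AICAR arrays and 4.88 to 4.98 on the vehicle arrays. The endothelial list averaged 4.73 to 4.90 with AICAR and 4.87 to 4.92 with vehicle, the hepatocyte list 5.55 to 5.82 with AICAR and 5.63 to 5.76 with vehicle, and the part of other cells in the results was not tested. The number of arrays limits the precision, and in cultures measured in bulk, fewer cells of a type and less RNA per cell cannot be told apart.

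The targeted genes came first as a check. Prkaa1, which encodes the α1 subunit, read 8.23, 8.02, 8.20 and 7.90 in dKO cells with AICAR, against 8.35, 8.27, 8.17 and 8.25 with vehicle. Prkaa2, which encodes α2, read 5.89, 6.05, 6.01 and 6.00 with AICAR and 6.00, 5.89, 5.89 and 5.76 with vehicle. Neither passed the test at its brightest probe set (adjusted p = 0.201 and 0.362 in limma), although Prkaa1 passed at the same difference of -0.17 when only the groups compared were fitted (adjusted p = 0.0343), and the dKO vehicle means of 8.26 and 5.89 lay close to the WT vehicle means of 8.35 and 6.21. A second, dimmer probe set of Prkaa2 was called higher with AICAR, at 5.78, 5.76, 6.13 and 5.68 against 5.46, 5.43, 5.42 and 5.42 with vehicle (0.40, adjusted p = 0.000365 in limma), and the third differed by -0.06. The sources used here do not name the deleted exons and the probes may lie outside them, so these readings do not check the deletion.

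The promoters below belong to genes with large differences that are described in the following paragraphs, and show what stands just before their starts. Each is printed 5′ to 3′ on the gene's strand from RefSeq on the mouse build GRCm38.p6, and capitals mark a motif: TTGCATCA, a form of the C/EBP-ATF response element; TGACGTCA, the cAMP response element; CACGTG, the E-box; and TATAAA, the TATA box. Windows reached from 250 bases before to 50 bases after the start, both strands were searched, and no motif contains another.
Chac1 (chr2:119351023-119351082, + strand): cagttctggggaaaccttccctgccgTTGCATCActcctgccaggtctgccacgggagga
Tbcc (chr17:46890559-46890618, + strand): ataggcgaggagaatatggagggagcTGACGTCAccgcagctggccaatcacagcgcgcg
Zfp367 (chr13:64152445-64152504, - strand): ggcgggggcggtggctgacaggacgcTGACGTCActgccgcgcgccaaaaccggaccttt
Irs1 (chr1:82291523-82291580, - strand): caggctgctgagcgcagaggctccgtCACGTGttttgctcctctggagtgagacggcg
Klhl28 (chr12:64965713-64965770, - strand): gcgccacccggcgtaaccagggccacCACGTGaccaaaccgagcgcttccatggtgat
Slc7a1 (chr5:148392812-148392869, - strand): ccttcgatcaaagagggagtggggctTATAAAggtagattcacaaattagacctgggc

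Promoters came from genes at least 2-fold higher (43 from 39 genes), at least 2-fold lower (199 from 158) and all tested genes (18009 from 14368). TGACGTCA stood in 6.98%, 5.53% and 2.50% of them, which is 3, 11 and 451 promoters in that order. Tbcc, which fell, and Zfp367, which rose, both carried it. CACGTG stood in 9.30%, 7.54% and 8.74% of the same promoters, and TATAAA in 9.30%, 11.06% and 9.76%. TTGCATCA stood in 2.33%, 1.01% and 0.69%, which is 1, 2 and 124 promoters. These shares are descriptions without a test, and a match is not a binding site.

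Chac1, which encodes an enzyme that degrades glutathione and is a target of the ATF4 pathway, had the largest fall. It read 6.96, 7.14, 6.83 and 7.46 in dKO cells with AICAR, against 9.96, 10.05, 9.98 and 9.92 with vehicle. The groups were far apart, and Chac1 was 7.38-fold lower with AICAR (log2 difference -2.88 ± 0.08 SE, adjusted p = 2.61e-23 in limma). Neat1, the long noncoding RNA that scaffolds nuclear paraspeckles, read 9.10, 9.25, 8.93 and 9.31 with AICAR and 11.85, 11.79, 11.86 and 11.90 with vehicle. It was 6.49-fold lower at the brighter of its 2 probe sets (-2.70 ± 0.05, adjusted p = 9.28e-27 in limma). The other probe set differed by -0.22 ± 0.09 and missed the threshold (adjusted p = 0.0543 over all probe sets), so the fall of Neat1 rests on 1 probe set. Dusp6, a cytoplasmic phosphatase of ERK, read 6.81, 6.90, 7.05 and 7.08 with AICAR and 9.46, 9.33, 9.36 and 9.42 with vehicle, a 5.40-fold fall. These 3 genes were chosen among those whose arrays did not overlap, so every AICAR array lay below every vehicle array by choice. Of all genes, 39.9% had no overlap.

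The other named falls covered signalling and transcription. Irs1, the adaptor of the insulin and IGF receptors, read 9.33, 9.39, 9.25 and 9.37 with AICAR and 11.30, 11.37, 11.28 and 11.30 with vehicle (-1.98 ± 0.04, adjusted p = 5.94e-27 in limma). Sox4, a developmental transcription factor, averaged 9.44 ± 0.06 with AICAR and 11.38 ± 0.05 with vehicle (SD, n = 4 arrays each). At 7 of its 8 probe sets Sox4 was called lower, and the remaining one differed by -0.11. Nrarp, a feedback inhibitor of Notch signalling, fell by 2.10 on the log2 scale, and Nfkbie, an inhibitor of NF-κB, fell by 1.91. Tbcc, a folding cofactor of tubulin, fell by 2.04. Zfp799, a zinc finger gene, and Jrk both fell by 2.09. For Jrk, 3 AICAR arrays read 6.57 to 6.65 and the other read 5.96, all below the vehicle range of 8.47 to 8.56.

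Taf15, an RNA-binding protein of the FET family, had the largest rise of the genes above the median level. It read 10.51, 10.36, 10.50 and 10.22 in dKO cells with AICAR, against 8.28, 8.51, 8.42 and 8.41 with vehicle, a 3.97-fold rise (1.99 ± 0.07, adjusted p = 2.36e-20 in limma). Zc3h12c, which belongs to a family of RNA-degrading zinc finger proteins, read 8.62, 8.59, 8.63 and 8.47 with AICAR and 6.83, 7.02, 6.94 and 6.85 with vehicle. Zfp367, a zinc finger transcription factor, read 11.38, 11.14, 11.27 and 11.08 with AICAR and 9.90, 9.75, 9.80 and 9.78 with vehicle. No array of one treatment reached the range of the other for these 3 genes, which were chosen among genes without overlap. Further zinc finger genes rose, with log2 differences of 1.48 for Zbtb34, 1.42 for Zbtb21, 1.38 for Zfp9, 1.33 for Zfp948 and 1.26 for Zfp51. The kelch-family gene Klhl28 rose by 1.63, Mss51 by 1.57, Tmem170 by 1.27 and Glt28d2, a gene of the glycosyltransferase family, by 1.27. Larger rises stood at genes that were dim with vehicle and so fell outside the rule for named genes, and they were picked after their values were seen. The noncoding RNA Dleu2 averaged 8.54 ± 0.12 with AICAR and 5.33 ± 0.25 with vehicle (3.21), Eqtn 5.80 ± 0.21 and 2.98 ± 0.07 (2.82) and Eid3 6.64 ± 0.31 and 4.10 ± 0.08 (2.53), in the same order (SD, n = 4 arrays each). Of the 3 probe sets of Dleu2, 2 were called higher (3.21 and 2.08) and 1 lower (-0.28).

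**Figure D1:**
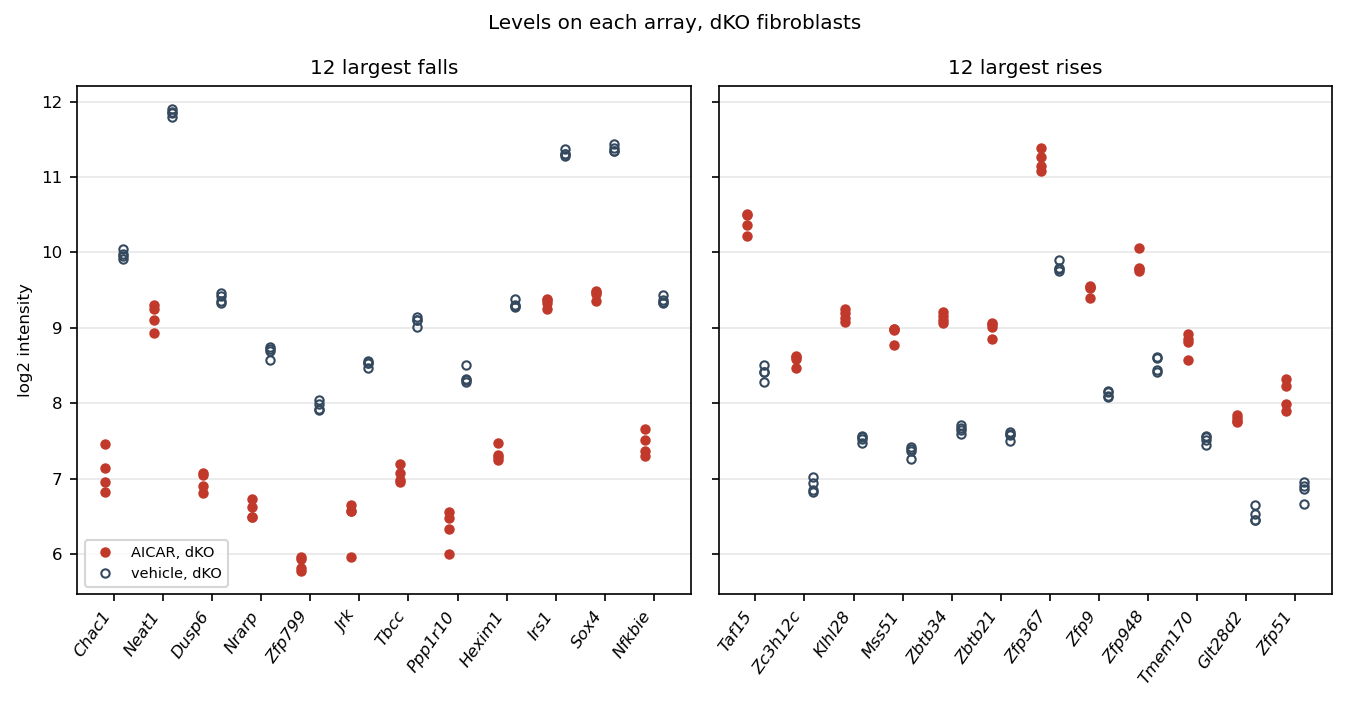
Log2 intensity of the 12 genes with the largest falls (left) and the 12 with the largest rises (right) among genes not below the median level, in dKO fibroblasts. Filled red points are the 4 AICAR arrays and open dark points the 4 vehicle arrays. The genes were chosen among those whose AICAR and vehicle arrays do not overlap, and run from Chac1 (-2.88) to Zfp51 (1.26).

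Genes that control the release of RNA polymerase II into elongation moved in both directions. P-TEFb, the kinase CDK9 with a cyclin T, is held inactive by the 7SK RNA, HEXIM1 and the 7SK-capping enzyme MEPCE. Of 31 measured genes of this group, 18 rose and 9 fell (58.1% and 29.0%, against 20.6% and 19.8% of all genes), with a median effect of 0.16. Hexim1 read 7.25, 7.47, 7.32 and 7.29 with AICAR and 9.28, 9.31, 9.38 and 9.29 with vehicle, a 3.94-fold fall seen at both of its probe sets (-1.98 and -1.70). Mepce read 7.75, 7.89, 7.73 and 7.62 with AICAR and 9.40, 9.38, 9.51 and 9.40 with vehicle (-1.67 ± 0.06). Ppp1r10, a regulatory subunit of nuclear protein phosphatase 1, read 6.00, 6.56, 6.33 and 6.48 with AICAR and 8.32, 8.51, 8.31 and 8.28 with vehicle (-2.01 ± 0.09). All 3 lay lower on every AICAR array than on any vehicle array, but Hexim1 and Ppp1r10 were chosen among genes without overlap. Ccnt1, which encodes cyclin T1, read 11.32, 11.33, 11.32 and 11.28 with AICAR and 10.50, 10.54, 10.53 and 10.48 with vehicle (0.80 ± 0.03, adjusted p = 2.41e-20 in limma). Cdk9, picked after its values were seen, was 0.58 higher.

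Of 23 measured genes for FET proteins, SR splicing factors and the CLK kinases that phosphorylate them, 12 rose and 6 fell (52.2% and 26.1%, against 20.6% and 19.8% of all genes), with a median of 0.12. Beside Taf15, the kinase Clk3 read 10.23, 10.21, 10.19 and 10.23 with AICAR and 9.20, 9.24, 9.28 and 9.15 with vehicle (0.99 ± 0.04). Clk4 rose by 0.63. The splicing factor Srsf10 was 0.50 lower at its brightest probe set, but the mean of its 4 probe sets differed by -0.04 (adjusted p = 0.404 in limma).

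Immediate early genes, which serum and growth factors induce within minutes, were lower on balance. Of 24 measured, 17 fell and 1 rose (70.8% and 4.20%, against 19.8% and 20.6% of all genes), with a median of -0.48. Egr2, a zinc finger factor, read 5.70, 5.87, 5.71 and 5.75 with AICAR and 7.87, 7.77, 8.0 and 8.03 with vehicle (-2.16 ± 0.09). Fosl2, a subunit of the AP-1 factor, averaged 7.56 ± 0.09 with AICAR and 9.19 ± 0.08 with vehicle at its brighter probe set (SD, n = 4 arrays each), and its other probe set was called higher by 0.48. Zfp36l1, which promotes decay of AU-rich mRNAs, fell by 1.25 and Ier2 fell by 1.17. Members picked after their values were seen differed in size: Myc fell by 0.87 and Fos by 0.42. Jun, a further AP-1 subunit, differed by -0.08 and missed the threshold at its brighter probe set (adjusted p = 0.142 in limma), but was called at -0.16 after quantile normalization and at -0.31 as the mean of its probe sets.

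The phosphatases and feedback inhibitors of MAP kinases, many of them transcribed when ERK is active, were also lower on balance. Of 17 measured, 12 fell and 4 rose (70.6% and 23.5%, against 19.8% and 20.6% of all genes), with a median of -0.33. The share that rose was near that of all genes. Dusp4, a nuclear ERK phosphatase, read 5.62, 5.51, 5.71 and 5.84 with AICAR and 8.18, 8.23, 8.17 and 8.06 with vehicle (-2.49 ± 0.10). Dusp2, a nuclear phosphatase of the same family, read 6.59, 6.63, 6.60 and 6.77 with AICAR and 7.89, 7.85, 7.91 and 7.87 with vehicle (-1.23 ± 0.07). Dusp16, which acts on JNK and p38, moved the other way, at 10.68, 10.70, 10.66 and 10.68 with AICAR and 9.64, 9.62, 9.57 and 9.57 with vehicle (1.08 ± 0.04). Spry2, an inhibitor of receptor tyrosine kinase signalling picked after its values were seen, fell by 0.79.

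Of 28 measured inflammatory genes and feedback inhibitors of NF-κB, 17 fell and 2 rose (60.7% and 7.10%, against 19.8% and 20.6% of all genes). The median was -0.25. Ptgs2, the inducible cyclooxygenase, read 8.53, 8.30, 8.55 and 8.23 with AICAR and 9.66, 9.43, 9.65 and 9.58 with vehicle (-1.18 ± 0.07). Csf1, the macrophage growth factor, averaged 9.82 ± 0.05 with AICAR and 10.79 ± 0.03 with vehicle at its brightest probe set (SD, n = 4 arrays each). A further probe set of Csf1 fell by 1.04, and the remaining 2 were called higher, by 0.62 and 0.35, so its direction depends on the probe set. The other 9 were not called. Il6, a cytokine, was one of the 2 that rose, at 5.89, 5.59, 6.05 and 5.60 with AICAR and 4.60, 4.62, 4.38 and 4.36 with vehicle (1.29 ± 0.10), all of them dim readings. The other, Nfkbib, an inhibitor of NF-κB picked after its values were seen, was 0.20 higher at its brightest probe set, while the mean of its probe sets differed by 0.03 and missed the threshold.

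The integrated stress response, in which ATF4 drives genes of amino acid supply, gave falls and rises. Of 35 measured members, 14 fell and 7 rose (40.0% and 20.0%, against 19.8% and 20.6% of all genes), with a median of -0.06. The share that rose was thus near that of all genes. Besides Chac1, the cationic amino acid transporter Slc7a1 read 10.00, 10.00, 9.98 and 9.98 with AICAR and 11.27, 11.31, 11.28 and 11.37 with vehicle (-1.32 ± 0.03). Its relative Slc7a3 moved the other way, at 7.54, 7.62, 7.51 and 7.54 with AICAR and 6.61, 6.43, 6.41 and 6.51 with vehicle (1.06 ± 0.07). The transcription factor Cebpb fell by 1.05. Atf4 itself, picked after its values were seen, fell by 0.56, and Ddit3, which encodes CHOP, by 1.00. Of 18 chaperones and regulators of the endoplasmic reticulum, 12 rose and 2 fell (66.7% and 11.1%, against 20.6% and 19.8% of all genes). The median was 0.17. Edem1, which takes part in degradation of misfolded glycoproteins, rose by 0.51 at its brighter probe set. Its other probe set differed by 0.10 and was not called. Dnajb9, a co-chaperone, rose by 0.41 and Eif2ak3, the stress kinase PERK, by 0.38. Xbp1, a transcription factor of the response, fell by 0.67.

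Of 25 measured genes that carry and convert AICAR and purines, 7 rose and 9 fell (28% and 36.0%, against 20.6% and 19.8% of all genes), with a median of -0.02. Slc29a2, an equilibrative nucleoside transporter, read 6.11, 6.33, 6.33 and 6.41 with AICAR and 7.24, 7.25, 7.24 and 7.30 with vehicle (-0.96 ± 0.06), and the transporter Slc29a1 fell by 0.31. Adk, the adenosine kinase that makes ZMP, overlapped between treatments at the brightest of its 6 probe sets, at 11.80, 11.63, 11.68 and 11.64 with AICAR and 11.51, 11.42, 11.43 and 11.71 with vehicle. Its difference of 0.17 (adjusted p = 0.00837 in limma) missed the threshold after quantile normalization (0.11, adjusted p = 0.0711) and without AICAR array 1 (0.13, adjusted p = 0.0531). Dimmer probe sets of Adk were called higher without overlap, 1 averaging 7.29 with AICAR and 6.34 with vehicle (0.94) and 1 averaging 6.29 with AICAR and 5.51 with vehicle (0.77), and the remaining 3 were not called. Ppat, the first enzyme of purine synthesis, rose by 0.33, and Ampd3, an AMP deaminase, fell by 0.66.

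Lysosome and autophagy genes controlled by TFEB and TFE3 had a median effect near 0 in dKO cells, at 0.03. Of 35 measured, 11 rose and 5 fell (31.4% and 14.3%, against 20.6% and 19.8% of all genes). Fnip1 and Fnip2, partners of folliculin, rose by 1.04 and 0.38. The proton pump subunit Atp6v1h rose by 0.29 at its brightest probe set, while its others differed by 0.01 and 0.03 and were not called. The sialidase Neu1 fell by 0.28 at its brightest probe set. Its others differed by -0.43, called, and -0.03, not called. Flcn, which encodes folliculin, read 9.0, 9.03, 9.05 and 8.99 with AICAR and 9.04, 8.93, 8.95 and 8.86 with vehicle, an overlap that did not pass the test (0.07 ± 0.07, adjusted p = 0.42 in limma). Of 20 cholesterol genes, 12 rose and 4 fell (60.0% and 20.0%, the latter near the share of all genes), with a median of 0.19. Hsd17b7, an enzyme of sterol synthesis, read 10.75, 10.79, 10.74 and 10.74 with AICAR and 9.99, 10.03, 9.99 and 9.99 with vehicle (0.75 ± 0.03). Fdft1, squalene synthase, rose by 0.52 and Cyp51, the lanosterol demethylase, by 0.51, while Insig1, a sterol sensor, fell by 0.43.

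Arrdc3 and Arrdc2, α-arrestins that direct membrane proteins to degradation, fell by 2.07 and 0.97. Arrdc4 and Txnip, α-arrestins that the glucose sensor MondoA induces, rose by 0.63 and 0.48. Of the 8 measured genes of the group, 4 rose and 4 fell (50% each, against 20.6% and 19.8% of all genes). The Krüppel-like factors split as well, with 5 of 13 higher and 4 lower (38.5% and 30.8%, against 20.6% and 19.8% of all genes). Their median level was 9.05 with AICAR and 9.6 with vehicle, and the group was not compared with genes of like level. Klf3, a transcriptional repressor, fell by 1.37 at its brightest probe set, although its 7 probe sets ran in both directions. Klf16 and Klf11 rose by 0.68 and 0.59, and Klf9 fell by 0.66.

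Of 22 p53 targets and Gadd45 genes, 5 rose and 9 fell (22.7% and 40.9%, against 20.6% and 19.8% of all genes), with Pmaip1, the BH3-only protein NOXA, higher by 1.04 and Btg1, Gadd45b and Plk2, which restrain cell growth, lower by amounts of -0.94, -0.92 and -0.86. Cdkn1a, the cell cycle inhibitor p21, picked after its values were seen, fell by 0.66. Of 18 YAP and SRF targets, 6 rose and 10 fell (33.3% and 55.6%), among them Ccn2, a matrix-associated growth factor, at 11.15, 11.29, 11.23 and 11.32 with AICAR and 12.35, 12.27, 12.24 and 12.33 with vehicle. Thbs1, thrombospondin, fell by 0.87, F3, tissue factor, by 0.76 and Ankrd1 by 0.67. In the circadian clock, 5 of 17 rose and 3 fell, shares near those of all genes (29.4% and 17.6%): the repressors Cry2 and Nfil3 rose by 0.80 and 0.55, and Per3 and Dbp fell by 1.01 and 0.69, although 1 of the 6 probe sets of Per3 was called higher (0.22). Of 19 fibroblast matrix and identity genes, 5 rose and 8 fell (26.3% and 42.1%), but with each gene as the mean of its probe sets 1 rose and 7 fell. Pdgfrb, a PDGF receptor, read 8.50, 8.39, 8.44 and 8.17 with AICAR and 9.21, 9.25, 9.19 and 9.29 with vehicle (-0.86 ± 0.07). Twist1, a mesenchymal factor, fell by 0.60, and Lox, which crosslinks collagen, rose by 0.42. Pdgfra, dim in both groups, fell by 0.47 at its brightest probe set, while the others differed by -0.06 and -0.03 and were not called. Among the subunits and upstream kinases of AMPK itself, 6 of 12 rose and 2 fell (50% and 16.7%). The muscle γ subunit Prkag3, dim throughout, fell by 0.57, and Strada, a partner of LKB1, rose by 0.31. The kinase Map3k7 rose by 0.33 at the brightest of its 6 probe sets. Its other probe sets differed by 0.06, 0.14, 0.10 and -0.03 without a call, and a dim one was called at 0.28. Stk11, which encodes LKB1, was 0.31 higher at its brighter probe set, while the mean of both differed by 0.10 and missed the threshold (adjusted p = 0.124 in limma).

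**Figure D2:**
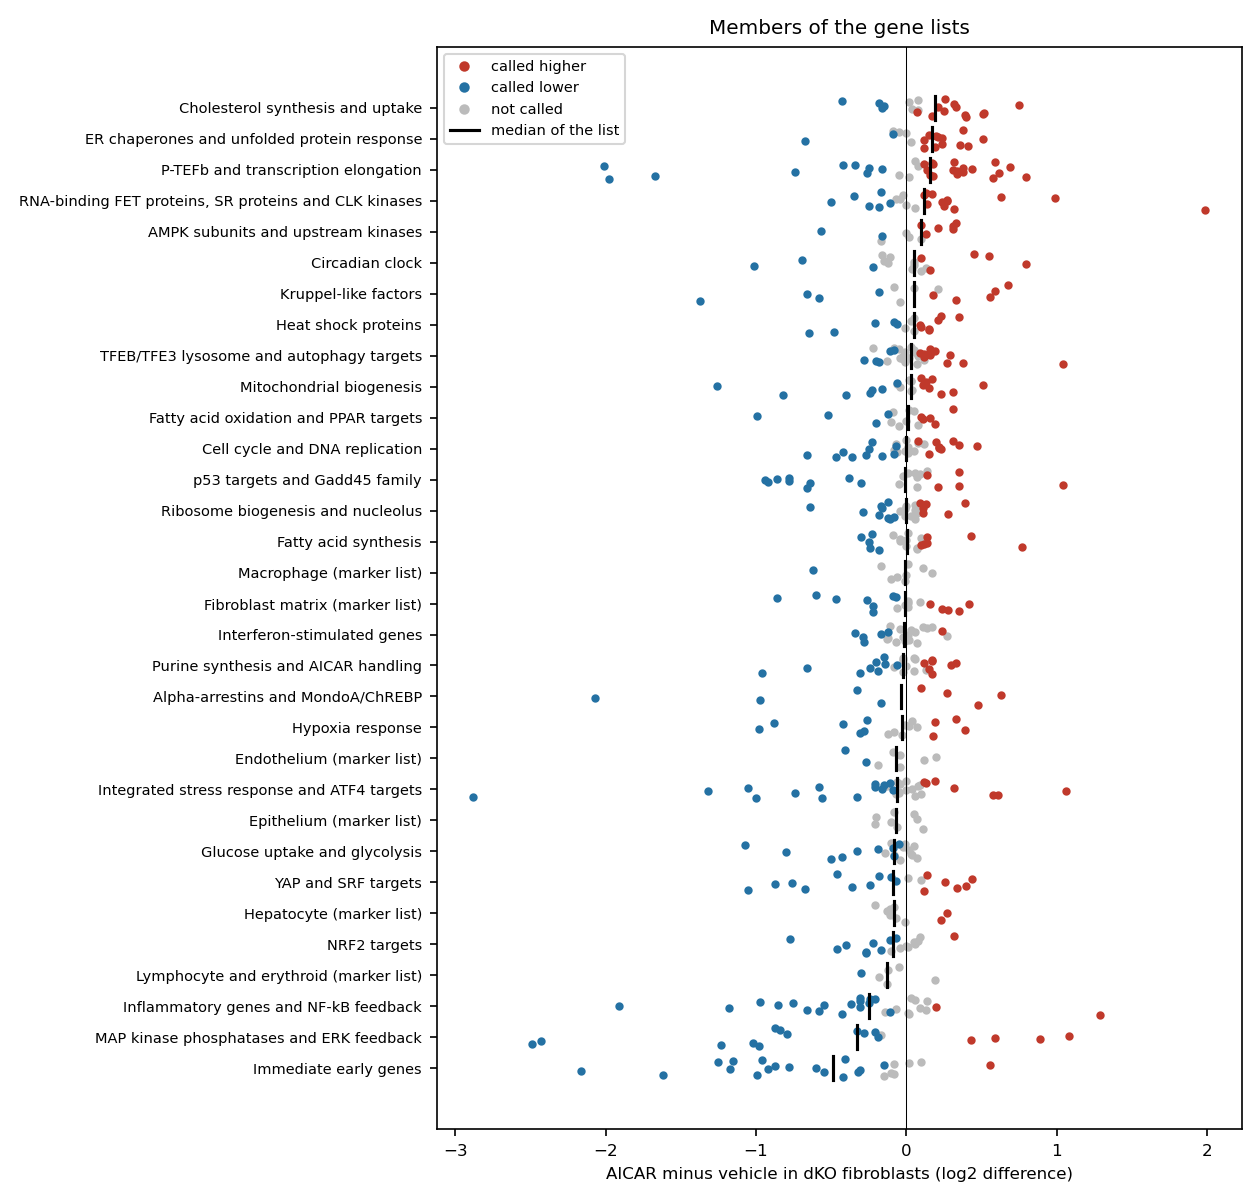
Log2 difference of each measured member of 32 gene lists, AICAR minus vehicle in dKO fibroblasts, with lists ordered by their median (black bar). Red points were called higher, blue points lower and grey points were not called. Immediate early genes had the lowest median (-0.48) and cholesterol genes the highest (0.19).

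The response was set beside that of WT fibroblasts given the same dose, using arrays that the dKO comparison does not share. WT cells had 6350 called genes (35.2%). Called in both genotypes in the same direction were 4569 genes, 62.8% of the dKO calls and 72.0% of the WT calls, and 121 were called in opposite directions. Across genes the effects in dKO and WT correlated at 0.794, a description over genes that are not independent replicates. Of the 687 genes at least 1.5-fold lower in dKO cells, 618 (90.0%) were called lower in WT cells and 3 higher. Of the 301 at least 1.5-fold higher in dKO cells, 284 (94.4%) were called higher in WT cells and none lower.

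The difference between the effects was tested as an interaction, the AICAR effect in dKO minus that in WT. It was called for 2187 genes (12.1%), higher in 759 (4.21%) and lower in 1428 (7.92%). Among the 687 dKO falls, the interaction was called lower for 417 and higher for 5, with median effects of -0.81 in dKO and -0.53 in WT. Among the 301 dKO rises it was called higher for 97 and lower for 6, with medians of 0.75 in dKO and 0.59 in WT. Choosing genes by the dKO effect favours a larger effect there, so the reverse choice was made too. Of 339 genes at least 1.5-fold lower in WT, 328 (96.8%) were called lower in dKO, with medians of -0.94 in dKO and -0.79 in WT, and the interaction was called lower for 117 and higher for 33. Of 215 genes at least 1.5-fold higher in WT, 201 (93.5%) were called higher in dKO, with medians of 0.78 in dKO and 0.72 in WT, and the interaction was called lower for 42 and higher for 28.

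At its brighter probe set Neat1 fell further in dKO cells, by 2.70, against a fall by 1.04 in WT cells. In WT cells it averaged 11.39 ± 0.12 with AICAR and 12.43 ± 0.02 with vehicle (SD, n = 4 arrays each). The interaction was -1.66 ± 0.08 (adjusted p = 2.26e-16 in limma). The other probe set of Neat1 did not repeat this contrast, at -0.22 in dKO cells, not called, and -0.30 in WT cells, called lower. Phf20, a chromatin reader, read 8.84, 8.84, 8.84 and 8.81 in dKO cells with AICAR and 10.09, 10.08, 10.10 and 10.02 with vehicle. In WT cells it averaged 10.38 ± 0.01 with AICAR and 10.30 ± 0.09 with vehicle, so the fall was called in dKO cells and no call was made in WT cells (interaction -1.32 ± 0.05). Irs1, Dusp6 and Sox4 had interactions of -1.28, -1.32 and -1.25, with smaller effects of -0.69, -1.11 and -0.68 in WT cells.

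Txnip rose less in dKO cells: it read 8.01, 8.11, 8.13 and 8.0 with AICAR and 7.55, 7.43, 7.80 and 7.53 with vehicle, against 8.94 ± 0.11 with AICAR and 7.08 ± 0.08 with vehicle in WT cells (SD, n = 4 arrays each). Its interaction was -1.37 ± 0.10 (adjusted p = 2.83e-11 in limma). Klf9 turned direction, with a fall by 0.66 in dKO cells and a rise of 0.32 in WT cells, and Cdkn1a likewise, with a fall by 0.66 in dKO cells and a rise of 0.21 in WT cells. Klf11 rose by 0.59 in dKO and 1.54 in WT cells, and the interaction was lower for 8 of the 13 Krüppel-like factors (61.5%, against 7.92% of all genes). For Flcn the effect was 0.07 in dKO and 0.40 in WT cells (interaction -0.32 ± 0.09, adjusted p = 0.0203 in limma). The interaction was called for 8 of 35 TFEB and TFE3 targets (22.9%), each time lower in dKO cells, and 20 of the 35 rose and 3 fell in WT cells. It was also lower at each of the 9 cholesterol genes, of 20 (45.0%), at which it was called, and the median effect of the 20 was 0.19 in dKO and 0.37 in WT cells. Insig1 had an effect of -0.43 in dKO and 0.08 in WT cells.

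For immediate early genes the interaction was lower for 14 of 24 (58.3%, against 7.92% of all genes), with medians of -0.48 in dKO and -0.21 in WT cells, and for the MAP kinase phosphatase group it was lower for 9 and higher for 2 of 17 (52.9% and 11.8%). Dusp4 and Egr2 had interactions of -2.18 and -1.58, but their WT levels with vehicle averaged 5.45 and 5.44, below the median gene level and well below the dKO vehicle means of 8.16 and 7.92. The effects of these genes were thus measured from different starting levels in the genotypes. Cxcl5, a neutrophil chemokine picked after its values were seen, had the largest positive interaction of all genes (2.53 ± 0.18). It was dim in dKO cells, at 3.22 ± 0.14 with AICAR and 3.21 ± 0.03 with vehicle, and in WT cells averaged 5.23 ± 0.15 with AICAR and 7.75 ± 0.15 with vehicle (SD, n = 4 arrays each).

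Of genes whose effect lay higher in dKO than in WT cells, Trib3, a pseudokinase induced by ATF4 and CHOP, read 7.85, 8.23, 8.0 and 8.27 in dKO cells with AICAR and 8.48, 8.47, 8.31 and 8.42 with vehicle. In WT cells it averaged 6.48 ± 0.24 with AICAR and 7.81 ± 0.09 with vehicle (SD, n = 4 arrays each), so the fall was smaller in dKO cells (interaction 1.00 ± 0.13, adjusted p = 2.82e-06 in limma). Galnt11, which starts O-linked glycosylation, rose by 0.48 in dKO cells and fell by 0.35 in WT cells, and Sfrp2, a secreted Wnt modulator, rose by 0.37 in dKO cells and fell by 0.40 in WT cells. The starting levels of both differed between genotypes: with vehicle Sfrp2 averaged 6.39 in dKO and 11.72 in WT cells, and Galnt11 9.57 in dKO and 7.42 in WT cells. The level with vehicle also differed for Slc1a3, a glutamate transporter: 6.78 in dKO cells, below the median gene level, and 9.12 in WT cells. At their brightest probe sets, Esco1, a cohesin acetyltransferase, and Slc1a3 were not called in dKO cells (0.07 and 0.05). In WT cells these probe sets fell by 0.81 and 0.69. Other probe sets did not repeat this contrast: the second of Esco1 was called higher in dKO cells (0.24) and differed by 0.11 in WT cells, and 2 of the 6 of Slc1a3 were called lower in dKO cells (-0.52 and -0.31) as well as in WT cells (-0.59 and -0.55). Taf15 rose by 1.99 in dKO and 1.28 in WT cells (interaction 0.71 ± 0.10). The interaction was higher for 8 and lower for 2 of the 23 splicing-related genes (34.8% and 8.7%, against 4.21% and 7.92% of all genes). Col1a2, a fibrillar collagen picked after its values were seen, differed by 0.35 in dKO and -0.12 in WT cells. In dKO cells its arrays overlapped and the mean of its 3 probe sets missed the threshold (0.14, adjusted p = 0.11 in limma). With vehicle Col1a2 averaged 9.22 in dKO and 13.90 in WT cells, so its effects too were measured from different starting levels. The same holds for Lox (interaction 0.47), at 7.06 in dKO and 11.27 in WT cells with vehicle.

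**Figure D3:**
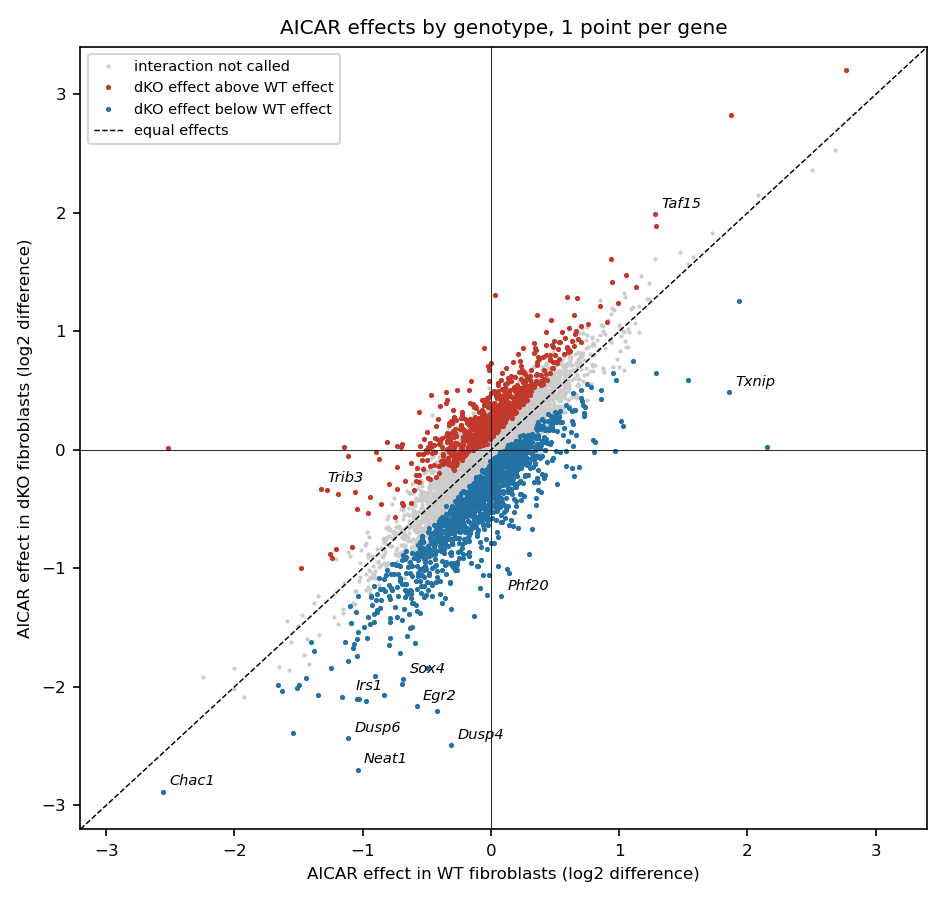
AICAR effect in dKO fibroblasts (vertical axis) against that in WT fibroblasts (horizontal axis), as log2 differences, with 1 point per gene. Coloured points had a called interaction, red where the dKO effect was above the WT effect (759 genes) and blue where it was below (1428 genes). The dashed line marks equal effects, and Neat1, Dusp6, Dusp4 and Txnip lie below it.

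Compound 991, at 10 µM, gave a far smaller response in dKO cells: 634 genes were called (3.52%), 344 higher and 290 lower. Over all genes the log2 effects lay between -0.58 and 0.45, so limma called none at 1.5-fold, and 2832 genes had an unadjusted p under 0.05. After quantile normalization 340 were higher and 481 lower. The number called was 344 in all with no intensity trend of the variance, and 403 without 991 array 3, 301 without vehicle array 1, 311 without vehicle array 2 and 356 without vehicle array 3. The doses of the compounds differ. AICAR minus 991, tested directly in dKO cells, was called for 6988 genes (38.8%), 3437 higher (19.1%) and 3551 lower (19.7%). This comparison shares the AICAR arrays with the one against vehicle, and 991 against vehicle shares the vehicle arrays with it. Its 6 largest falls were at Chac1 (-2.99), Neat1 (-2.80), Dusp6 (-2.27), Zfp799 (-2.21), Hexim1 (-2.19) and Jrk (-2.06). The 6 largest rises were at Taf15 (2.08), Zc3h12c (1.67), Mss51 (1.55), Klhl28 (1.46), Zbtb34 (1.46) and Zfp367 (1.43). Hexim1 with 991 was 0.21 above vehicle (adjusted p = 0.0147 in limma), the opposite direction to AICAR.

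Primary dKO hepatocytes had 300 µM AICAR for 4 h, a lower dose, in 2 preparations, and their values are given side by side without a test. Neat1 was lower there too, by -3.28 and -3.92 in the 2 preparations. Zfp799 differed by -1.36 and -0.95, Sox4 by -0.95 and -0.70, and Ddit3 by -2.05 and -2.61. Eid3 was higher, by 2.49 and 2.19. Chac1 did not share a direction between preparations (0.49 and -0.22), Hexim1 differed by -0.29 and 0.22, and Taf15, which rose in fibroblasts, was lower at -0.52 and -1.15. Ppp1r10, which fell in fibroblasts, was higher in hepatocytes at 0.60 and 0.69, and so was Atf4 at 0.46 and 0.27. Other genes with large differences in fibroblasts differed little in hepatocytes. Irs1 differed by -0.28 and -0.18, Tbcc by -0.16 and -0.14, Klhl28 by -0.04 and -0.17, and Zfp367 by 0.07 and -0.17. The genes given for hepatocytes follow no set rule.

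Probe sets of the same gene sometimes moved apart. Of 3387 genes with at least 2 called probe sets in the dKO comparison, 667 (19.7%) were called in both directions, and 26 were so at 1.5-fold or more each way. The examples here were picked after their values were seen. One probe set of Fem1b, a substrate receptor of a ubiquitin ligase, averaged 9.41 ± 0.13 with AICAR and 6.98 ± 0.04 with vehicle (2.43), and the other 10.05 ± 0.08 with AICAR and 10.68 ± 0.03 with vehicle (-0.63). Asxl1, a Polycomb-associated chromatin regulator, had probe sets at 1.64 ± 0.04, 0.47 ± 0.09 and -0.88 ± 0.03. Ip6k2, an inositol phosphate kinase, had 1.10 ± 0.07 and -0.93 ± 0.07, and WT cells gave 0.92 and -0.84 at the same probe sets. Enc1, an actin-associated kelch protein, had -0.98, -0.80 and 1.27 in dKO cells. For such genes the level of a gene depends on which probe set stands for it, and the positions of the probes along the transcripts were not analysed here.

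**Figure D4:**
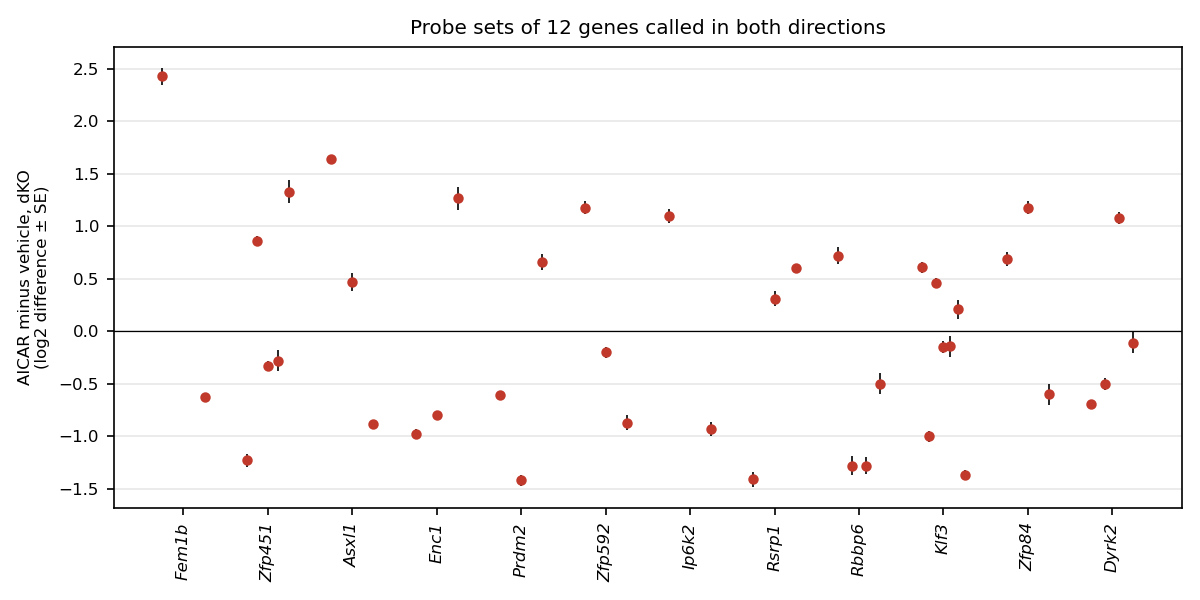
Log2 difference of each probe set, AICAR minus vehicle in dKO fibroblasts (bars are SE from limma), for the 12 genes with the widest gap among the 26 called in both directions at 1.5-fold or more. Fem1b has one probe set at 2.43 and one at -0.63.

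The genes that fell had a shorter median length in the genome than the genes that rose. By the RefSeq span on GRCm38.p6, genes at least 1.5-fold lower with AICAR in dKO cells had a median length of 10.9 kb (quartiles 4.2 and 28.5 kb, 687 genes), and those at least 1.5-fold higher 21.3 kb (12.1 and 37.0 kb, 301 genes), with 20.3 kb over all 18029 genes with a length (7.9 and 50.5 kb). Of genes under 3 kb, 7.24% fell and 0.84% rose at this fold. Between 10 and 30 kb, 3.36% fell and 2.59% rose, and over 100 kb 2.41% fell and 0.53% rose. In WT cells 3.43% of the genes under 3 kb and 1.56% of those over 100 kb fell. Restricted to genes not below the median level, the dKO shares that fell were 15.6% under 3 kb, 9.0% from 3 to 10 kb and 3.49% over 100 kb. Genes are not independent replicates, and no test was made of this order.

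**Figure D5:**
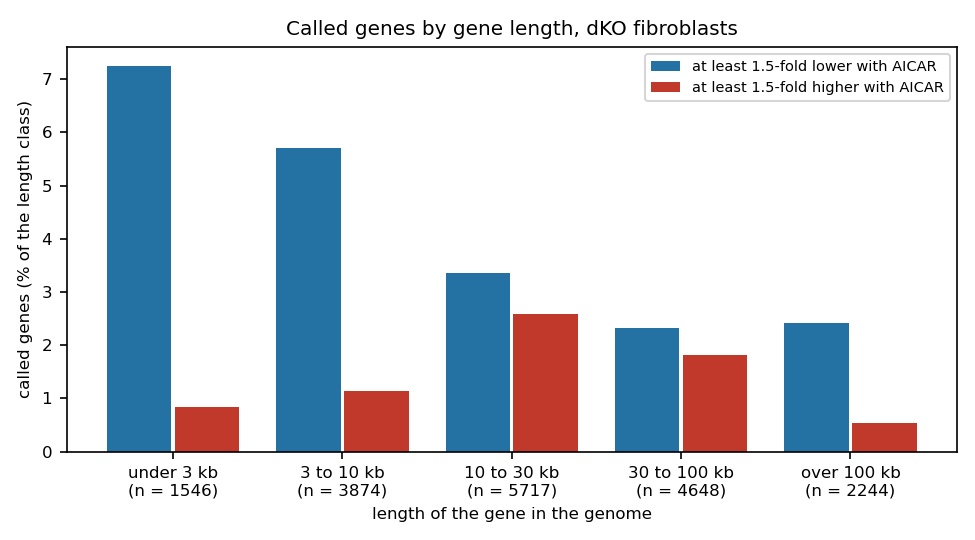
Share of genes called at least 1.5-fold lower (blue) and higher (red) with AICAR in dKO fibroblasts, in percent of each class of gene length, with the number of genes in each class. The share that fell is 7.24% under 3 kb and 2.41% over 100 kb, and the share that rose is highest from 10 to 30 kb, at 2.59%.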

How the data were processed

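RNA was hybridised to Affymetrix mouse arrays. Values were deposited as the log2 intensity of each probe set; the authors made them with RMA and Partek, per the submitters' processing notes; versions and genome build are not given in the sources used here. Values are relative within an array, so total RNA per cell was not measured. Of 45101 probe sets, 64 controls were left out; 34945 had 1 gene symbol, 932 several and 9160 none, and 34741 matched a RefSeq gene. The probe set with the highest mean over the 23 fibroblast arrays stood for each of 18032 genes, with no filter on dim genes. Old symbols were updated.

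limma 3.58.1 in R 4.3.3 fitted a mean for each of 6 fibroblast groups (lmFit, contrasts.fit, eBayes with an intensity trend, 17 residual degrees of freedom), with Benjamini-Hochberg adjustment within each comparison. The steps were tested on simulated data. Probe sets were tested likewise over all 45037. Hepatocyte technical replicates were averaged within a preparation. Python 3.11.15, pandas 2.3.3 and matplotlib 3.10.9 prepared tables and figures.

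The comparisons, the 32 gene lists, the motifs and the rules were chosen with earlier results of these data known. Named are Prkaa1, Prkaa2 and Flcn, the 12 largest falls and 12 largest rises in dKO cells with AICAR among called genes at or above the median level whose arrays did not overlap, 6 in each direction for the interaction and for AICAR minus 991, and up to 4 called members of a list with the largest change. Predicted genes, Xist and Y-linked genes were not eligible by size of change. Technical replicate numbers were not used as pairs in the main fits. Deviations of same-numbered arrays correlated across genes at a median of 0.018 over 55 pairs. For the 4 pairs of dKO AICAR and vehicle arrays they correlated at 0.001 to 0.23. Whether same-numbered arrays share a run was not tested. Alternatives were quantile normalization, a gene's mean over its probe sets, only genes not below the median level, no intensity trend, fits of only the groups compared, a replicate block and leaving out each array.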

Additional observations from a re-analysis of the deposited data

Results flagged for a closer look

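Among 124 named genes, 14 groups of 4 arrays out of 248 held 1 array far from the other 3, and chance alone flags about 1 in 20 such groups. In dKO cells with AICAR this was the lowest array for Jrk (5.96), Mss51 (8.78), Zfp9 (9.40), Phf20 (8.81) and Thbs1 (9.44), and the highest for Zfp948 (10.06) and Sfrp2 (7.07). In dKO cells with vehicle it was the highest array for Ppp1r10 (8.51), Sfrp2 (6.59), Mepce (9.51), Neu1 (8.22), Hsd17b7 (10.03), Atf4 (12.67) and Ddit3 (8.66).

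Many of the 124 named genes were chosen by the size of their interaction or dKO effect, or after their values were seen. The share of them with a called interaction is therefore not a result about these genes. The AICAR effect in dKO minus that in WT fibroblasts was called in limma for 2187 genes (12.1%), and for 77 of the named genes. It was negative, as log2 differences, for Dusp4 (-2.18), Neat1 (-1.66), Egr2 (-1.58), Txnip (-1.37), Dusp6 (-1.32), Phf20 (-1.32), Irs1 (-1.28), Sox4 (-1.25), Nrarp (-1.06), Nfkbie (-1.0), Klf9 (-0.99), Klf11 (-0.95), Zfp799 (-0.93), Cdkn1a (-0.88), Spry2 (-0.79), Dusp2 (-0.77), Arrdc3 (-0.72), Pdk4 (-0.70), Btg1 (-0.68), Zfp36l1 (-0.63), Arrdc2 (-0.62), Plk2 (-0.61), Slc29a2 (-0.61), Ier2 (-0.60), Mepce (-0.60), Eno2 (-0.55), Myc (-0.55), Insig1 (-0.52), Dbp (-0.51), Ddit3 (-0.50), Ppp1r10 (-0.50), Per3 (-0.49), Klf3 (-0.48), Twnk (-0.48), Prkag3 (-0.47), Ccnd1 (-0.41), Gadd45b (-0.41), Tbcc (-0.41), Ccne2 (-0.37), F3 (-0.35), Hsd17b7 (-0.35), Fnip2 (-0.34), Chac1 (-0.33), Flcn (-0.32), Hexim1 (-0.32), Xbp1 (-0.32), Ccn2 (-0.30), Dnajb9 (-0.30), Thbs1 (-0.30), Twist1 (-0.30), Cd14 (-0.28), Slc29a1 (-0.28), Cebpb (-0.27), Csf1 (-0.22), Fosl2 (-0.22), Slc7a1 (-0.21), Nfkbib (-0.18). It was positive for Cxcl5 (2.53), Trib3 (1.0), Eqtn (0.95), Esco1 (0.87), Galnt11 (0.84), Sfrp2 (0.77), Slc1a3 (0.74), Taf15 (0.71), Il6 (0.70), Zbtb21 (0.48), Col1a2 (0.47), Lox (0.47), Dleu2 (0.44), Zbtb34 (0.42), Slc7a3 (0.30), Adk (0.28), Zfp9 (0.25), Edem1 (0.25), Atf4 (0.19), Dusp16 (0.17).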

How the results depend on the processing

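Every count of called genes stayed within 1.5 times its value for AICAR against vehicle in dKO cells, AICAR against 991, AICAR in WT cells and the interaction, under all alternatives run. With a replicate block the counts were 7387, 7129, 6492 and 2242 in that order, and 673 for 991 against vehicle. The labels do not say whether same-numbered arrays were processed together. Leaving out 1 array gave 6679 to 7392 genes for AICAR against vehicle in dKO cells, 6285 to 7310 against 991, 5604 to 6633 in WT cells and 1655 to 2249 for the interaction. The count for 991 against vehicle moved: 344 with no intensity trend, and 301 to 539 without 1 array, with 403 without 991 array 3, 301 without vehicle array 1, 311 without vehicle array 2 and 356 without vehicle array 3; the cause was not tested. Quantile normalization gave 3283 higher and 3935 lower genes for AICAR against vehicle in dKO cells. No named gene that was called changed direction; 16 gene results fell short of the threshold under an alternative (Apoa1 under 5 of them, Adk, Fgb and Kdr under 2 each, and Cd8a, Col1a2, Nfkbib, Srsf10 and Stk11 with the mean of all probe sets) and 4 newly passed it (Jun under 2, Esco1, and Prkaa1 at -0.17 with only the groups compared). Counts of called list members stayed within 1.5 times in 430 list results and moved further in 16. These were the fibroblast matrix list with the mean of all probe sets (8 called), the α-arrestin list with only genes not below the median level (4 called, fewer genes being tested), and marker lists of other cells, where at most 2 members were called. Signal near the lower end of the scale limits falls that can be seen for dim genes.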

Other observations

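Genes of energy metabolism and growth outside the groups above were also measured in dKO fibroblasts with AICAR, and the members named here were picked after their values were seen. The shares of all genes beside these lists include dim genes, and no list was compared with genes of like level. Of 20 genes of glucose uptake and glycolysis, 9 were called in limma, each of them lower (45.0%, against 19.8% lower over all genes), with a median of -0.08. Eno2, a neuronal form of enolase, averaged 6.23 ± 0.11 with AICAR and 7.30 ± 0.08 with vehicle, and Pfkfb3, which makes the activator of phosphofructokinase, averaged 5.61 ± 0.09 with AICAR and 6.40 ± 0.11 with vehicle (SD, n = 4 arrays each). Of 20 genes of fatty acid synthesis, 6 rose and 5 fell (30% and 25%, against 20.6% and 19.8% of all genes). Acss2, which makes acetyl-CoA from acetate, rose by 0.77. Of 16 genes of fatty acid oxidation, 5 rose and 4 fell (31.2% and 25%): Pdk4, an inhibitory kinase of pyruvate dehydrogenase, averaged 8.20 ± 0.05 with AICAR and 9.19 ± 0.06 with vehicle, and differed by 1.33 and 1.83 in the 2 dKO hepatocyte preparations given 300 µM AICAR. Of 22 genes of mitochondrial biogenesis, 8 rose and 7 fell (36.4% and 31.8%), and Twnk, the mitochondrial helicase, fell by 1.26.

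Of 29 cell cycle genes, 9 rose and 10 fell (31.0% and 34.5%, against 20.6% and 19.8% of all genes). Ccne2, cyclin E2, averaged 9.35 ± 0.04 with AICAR and 10.01 ± 0.06 with vehicle, and Ccnd1, cyclin D1, averaged 11.23 ± 0.02 with AICAR and 11.71 ± 0.02 with vehicle (SD, n = 4 arrays each). Of 18 targets of NRF2, the regulator of antioxidant genes, 9 fell and 1 rose (50% and 5.6%, against 19.8% and 20.6% of all genes). Of 17 hypoxia genes, 6 fell and 4 rose (35.3% and 23.5%), with Ankrd37 lower by -0.98. Of 22 interferon-stimulated genes, 5 fell and 1 rose (22.7%, near the share of all genes, and 4.5%). Heat shock proteins gave 7 rises and 5 falls of 16 (43.8% and 31.2%), and genes of ribosome production 6 rises and 9 falls of 25 (24% and 36.0%).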
